A study of Mus musculus with 2 samples.

Results

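Mir223, Mir150, Mir155, Mir146 and Mir146b are 5 microRNA (miRNA) genes known from white blood cells, and they were followed here in the stomach of mouse embryos. They were found by gene symbol: each had 1 row among the 1973 miRNA genes counted, and Mir146 is the annotation's name for the gene of miR-146a. RNA from whole stomach of B6NCrl embryos of mixed sex, at embryonic day 15.5, was sequenced after selection for molecules shorter than 30 nt. The samples form 1 group without treatment or mutation, made of 2 pools. Replicate 2 came from 62 embryos and replicate 1 from 78 embryos, so each value is an average over many animals, and the comparisons are between genes and between the pools. All levels are in CPM: a gene's sense-strand read count divided by the library's total of sense-strand miRNA gene counts and scaled to a common total of 1000000. The totals were 6675498 counts in replicate 2 and 5988677 in replicate 1. Taking 3 counts as what a count of 0 can hide, the limit of detection was 0.449 CPM in replicate 2 and 0.501 CPM in replicate 1; this limit and all intervals cover counting error alone. No miRNA marks stomach by itself, but the epithelial Mir200a (1201 ± 88.5 CPM, SD, n = 2) and the endothelial Mir126a (25628 ± 830 CPM, SD, n = 2), of cell types that the stomach wall holds, were both counted.

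A miRNA is cut from a hairpin in a longer transcript, and the strand that is loaded into an Argonaute protein represses messenger RNAs that pair with its seed, bases 2 to 8. Mir223 is the classic miRNA of the myeloid line, where it restrains the maturation and activity of mouse granulocytes. Mir150 marks maturing B, T and NK lymphocytes and represses the transcription factor Myb. Mir155 and miR-146 are linked to activation: Mir155 is induced in stimulated lymphocytes and macrophages and represses Socs1 and Inpp5d, while miR-146a is induced through NF-kappaB and dampens the same pathway by repressing Traf6 and Irak1. In the embryo the liver is the chief site of blood formation, and macrophages settle in other organs before birth.

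The mature sequences below are products of these genes, with the seed in capitals and bases written 5′ to 3′, from RefSeq on GRCm38.p6. RefSeq's table held 9 mature sequences for the 5 genes, and miR-150-5p is not among those shown. The counts are per gene, so the arms of a hairpin (5p and 3p) are not separated.
miR-223-5p: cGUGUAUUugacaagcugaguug
miR-223-3p: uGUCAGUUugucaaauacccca
miR-150-3p: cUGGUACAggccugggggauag
miR-155-5p: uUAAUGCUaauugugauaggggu
miR-155-3p: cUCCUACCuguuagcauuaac
miR-146a-5p: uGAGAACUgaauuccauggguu
miR-146a-3p: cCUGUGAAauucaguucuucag
miR-146b-5p: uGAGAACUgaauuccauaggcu
miR-146b-3p: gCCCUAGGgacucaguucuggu

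Of these 9 sequences, the 5p arms of miR-146a and miR-146b were the only pair with a common seed, and no other of the 1738 mature entries in the table carried the seed of any of the 9. The 146 pair was the same in 20 of 22 bases. Counting from 1 at the 5′ end, the changes from miR-146a-5p to miR-146b-5p were G18A and U21C, so the first 17 bases were identical. Their 3p arms matched at only 4 of 22 positions. None of the 9 sequences lay whole in the hairpin of another gene of that table, which has 1005 hairpins.

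The 5 genes lie on 5 chromosomes, given here on mm10 from GENCODE M21. Mir223 (chrX:96242817-96242926, plus strand) lies in an exon of the noncoding gene F630028O10Rik on the same strand, 4277 bases from Vsig4, the nearest protein-coding gene. Mir155 (chr16:84714140-84714204, plus strand) lies in an exon of its noncoding host gene Mir155hg. Mir150 (chr7:45121757-45121821, plus strand) overlaps 0 other genes of that annotation. Mir146 (chr11:43374397-43374461, minus strand) also overlaps none, with Pttg1 the nearest protein-coding gene at 45789 bases. Mir146b (chr19:46342762-46342870, plus strand) lies in an intron of Mfsd13a on the same strand. The hairpins of Mir223 and Mir155 are shown because they carry the most abundant myeloid and an activation-linked product, with both mature arms in capitals.
Mir223: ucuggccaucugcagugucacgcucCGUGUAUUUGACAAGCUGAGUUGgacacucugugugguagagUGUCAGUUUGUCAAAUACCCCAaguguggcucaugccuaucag
Mir155: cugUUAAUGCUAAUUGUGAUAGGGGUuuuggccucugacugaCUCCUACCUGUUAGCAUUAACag

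The myeloid gene led the 5 in both pools, the activation-linked Mir146 and Mir155 followed well below it, the lymphoid gene was lower still, and Mir146b was barely counted. Summed, the 5 genes held 0.131% of all sense counts of replicate 2, with a Wilson interval of 0.128 to 0.134 at the 95% level. In replicate 1 they held 0.153%, with an interval of 0.150 to 0.156. Mir223 made up 85.0% of that sum in replicate 2 and 81.4% in replicate 1. Mir155, Mir146 and Mir146b together made up 13.8% in replicate 2 and 17.0% in replicate 1. Mir150 made up 1.21% in replicate 2 and 1.58% in replicate 1. In whole tissue, fewer cells of a type and less of the miRNA per cell cannot be told apart. Whether white blood cells or other cells made each miRNA cannot be read from these counts either. These shares are therefore not shares of cells.

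**Figure D1:**
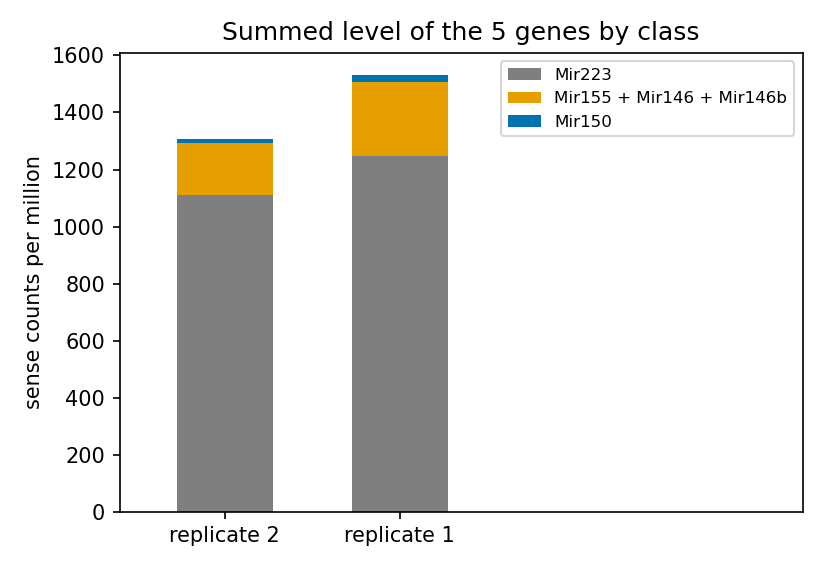
Summed level of the 5 genes in CPM (vertical axis) for replicate 2 and replicate 1, 1 bar per library, split into Mir223, the activation-linked genes and Mir150. Mir223 fills most of both bars, at 1112 CPM in replicate 2 and 1247 CPM in replicate 1.

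Mir223 had 7423 counts in replicate 2 and 7469 in replicate 1. That is 1112 CPM in replicate 2 (95% exact Poisson interval 1087 to 1138) and 1247 CPM in replicate 1 (1219 to 1276), a mean of 1180 ± 95.6 CPM (SD, n = 2). It ranked 92 among all 1973 genes by mean level, and 80.3% of the 466 genes with at least 10 summed counts lay below it. The pools differed in it by a coefficient of variation of 8.11%, the smallest among the 5. By closeness in log2(CPM + 1) over the 2 libraries, the genes most like it were Mir200a, an epithelial miRNA, with 1138 CPM in replicate 2 and 1263 CPM in replicate 1, and Mir134 of the imprinted Dlk1-Dio3 region, with 1134 CPM in replicate 2 and 1317 CPM in replicate 1.

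Mir150, the lymphocyte gene, had 106 counts in replicate 2 and 145 in replicate 1. It stood at 15.9 CPM in replicate 2 (13.0 to 19.2) and 24.2 CPM in replicate 1 (20.4 to 28.5), with a mean of 20.0 ± 5.89 CPM (SD, n = 2). Its level was far above the limit of a zero count in both pools, and it ranked 260, with 44.2% of the 466 genes below it. The genes closest to it were Mir147, itself one of the myeloid genes described below, and Mir669e, with 16.9 CPM in replicate 2 and 23.4 CPM in replicate 1.

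Among the activation-linked genes, Mir146 had 665 counts in replicate 2 and 941 in replicate 1. This gave 99.6 CPM in replicate 2 (92.2 to 107) and 157 CPM in replicate 1 (147 to 167), and a mean of 128 ± 40.7 CPM (SD, n = 2). Mir155 had 536 counts in replicate 2 and 614 in replicate 1, which is 80.3 CPM in replicate 2 (73.6 to 87.4) and 103 CPM in replicate 1 (94.6 to 111). Its mean was 91.4 ± 15.7 CPM (SD, n = 2). Mir146 ranked 183 and Mir155 ranked 202, so both lay above the middle of the 466 genes, with 60.7% and 56.7% of them below. Closest to Mir146 were Mir135b and Mir449a, at mean levels of 113 and 132 CPM. Closest to Mir155 were Mir29a and Mir5099, at 93.4 and 92.8 CPM.

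Mir146b, whose 5p product shares the miR-146a seed, had 1 count in replicate 2 and 4 in replicate 1. Its level was 0.150 CPM in replicate 2 (0.00379 to 0.835) and 0.668 CPM in replicate 1 (0.182 to 1.71). Both intervals include the limit of a zero count, and 4 other genes, among them Gm26220 and Mir3098, had the same 2 counts. Reads that match several places are not in the gene counts. A read that ends before base 18 of the 5p arm matches both miR-146 genes, and how many reads either gene lost this way was not tested. In the counts as assigned, the pair came almost entirely from Mir146, on chromosome 11.

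**Figure D2:**
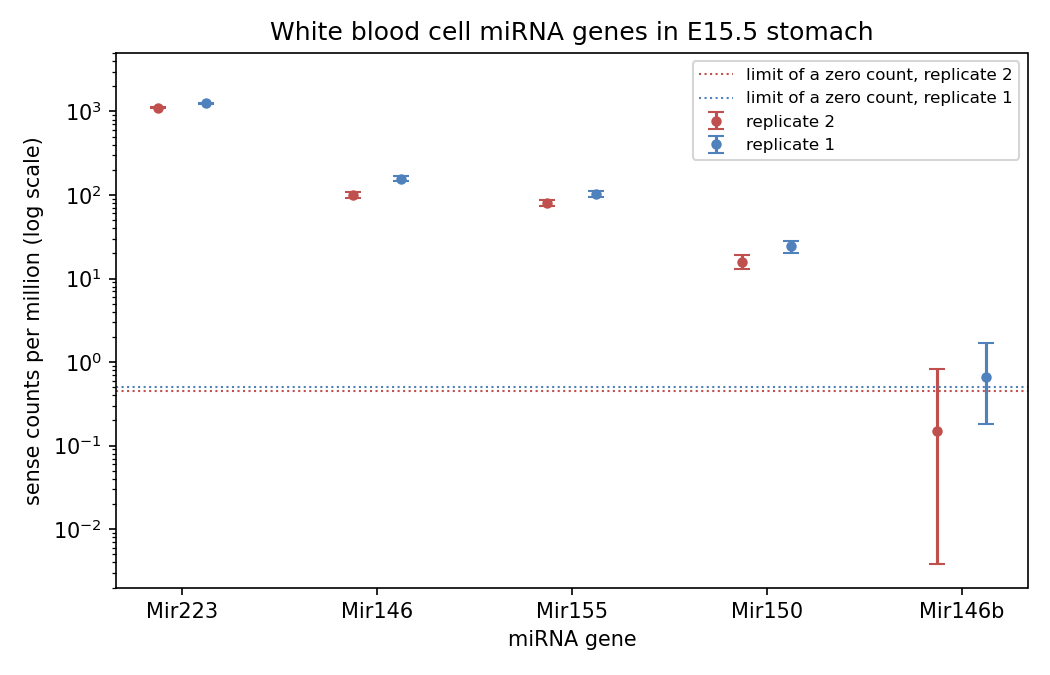
Level of each gene in CPM on a log axis, replicate 2 left of replicate 1, with bars for 95% exact Poisson intervals and dotted lines for the limit of a zero count. Mir223 lies at the top in both libraries, at 1112 CPM and 1247 CPM, Mir146, Mir155 and Mir150 follow, and Mir146b lies at the limit.

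The order was the same in both libraries: Mir223, Mir146, Mir155, Mir150, Mir146b. Fold ratios of counts within a library do not depend on its total, while the log2 differences do through the 1 CPM added. Both rest on read counts, and whether different miRNAs were captured equally well was not tested. Mir223 exceeded Mir150 70.0-fold in replicate 2 (95% exact interval 57.8 to 85.7) and 51.5-fold in replicate 1 (43.7 to 61.1), or by 5.84 ± 0.29 on the log2(CPM + 1) scale (SD, n = 2). It exceeded Mir155 13.8-fold in replicate 2 and 12.2-fold in replicate 1, a log2 difference of 3.68 ± 0.13. It exceeded Mir146 11.2-fold in replicate 2 (10.3 to 12.1) and 7.94-fold in replicate 1 (7.42 to 8.50), a log2 difference of 3.22 ± 0.34. Each of these gaps was many times its SD between the pools.

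The other neighbours in the order were less evenly spaced. Mir146 exceeded Mir155 1.24-fold in replicate 2 (1.11 to 1.39) and 1.53-fold in replicate 1 (1.38 to 1.70). Each within-library interval lay above 1, but the levels of the genes overlapped across pools, since Mir155 in replicate 1 was higher than Mir146 in replicate 2. The log2 difference was 0.46 ± 0.21. Mir155 exceeded Mir150 by 2.15 ± 0.16 and Mir146 exceeded Mir150 by 2.61 ± 0.05 on that scale, with no overlap between the genes. Mir146 exceeded Mir146b 665-fold in replicate 2, with an interval of 119 to 26305, and 235-fold in replicate 1 (91.6 to 865), intervals set by the few counts of Mir146b.

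All 4 genes with enough counts to test were lower in replicate 2 than in replicate 1, and none differed 2-fold. The test was a two-sided exact binomial test per gene with Benjamini-Hochberg adjustment over the 466 genes with at least 10 summed counts, which left out Mir146b. It compares these 2 libraries, not conditions. With a 2-fold limit it called 0 of the 4 genes, against 5.79% of all genes tested. The unadjusted p of the 4 by this binomial test ran from 1.42e-19 to 0.00111. The exact test of edgeR takes its spread from the same 2 libraries and was read without a fold limit. It passed 0 of the 4, and only 4 of all 466 genes. By this edgeR test the unadjusted p of the 4 ran from 0.21 to 0.929. With no fold limit the binomial test passed all 4, all lower in replicate 2. Of all genes tested, 45.7% passed that rule in either direction and 33.0% as lower in replicate 2.

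Mir223 differed by -0.17 on the log2 scale, replicate 2 over replicate 1, with a 95% exact interval of -0.21 to -0.12 and an adjusted p of 1.18e-11 by the exact binomial test. The median gene differed by -0.11, and 47.0% of tested genes had a lower ratio than Mir223, so it lay near the middle of the table. Mir146 had the largest difference of the 4, at -0.65 (-0.80 to -0.51; adjusted p = 7.14e-19 by the exact binomial test), and 11.8% of tested genes had a lower ratio. Mir150 differed by -0.58 (-0.98 to -0.24; adjusted p = 0.00301 by the exact binomial test) and Mir155 by -0.35 (-0.52 to -0.18; adjusted p = 0.000123 by the exact binomial test). For Mir146b the counts of 1 and 4 gave a log2 interval of -7.78 to 1.18, so no difference was detectable at this depth.

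Scaling the libraries by edgeR's TMM raised every ratio by 0.13 before the 1 CPM was added, and DESeq2 size factors raised them by 0.16. The difference of Mir223 then came to -0.04 with TMM and -0.01 with DESeq2 size factors, with adjusted p of 0.212 and 0.836 by the exact binomial test. Mir146 stood at -0.52 and -0.50, Mir150 at -0.46 and -0.43, and Mir155 at -0.22 and -0.19. Adjusted p by the exact binomial test, TMM first, was 1.79e-12 and 2.73e-11 for Mir146. It was nearer the threshold of 0.05 for Mir150 (0.0248 and 0.036) and Mir155 (0.022 and 0.0497). With no fold limit 3 of the 4 genes then passed as lower in replicate 2, against 21.9% of all genes with TMM and 21.0% with DESeq2 size factors. Mir146, Mir150 and Mir155 stayed lower in replicate 2 under both scalings, while for Mir223 a difference was not detectable under either.

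**Figure D3:**
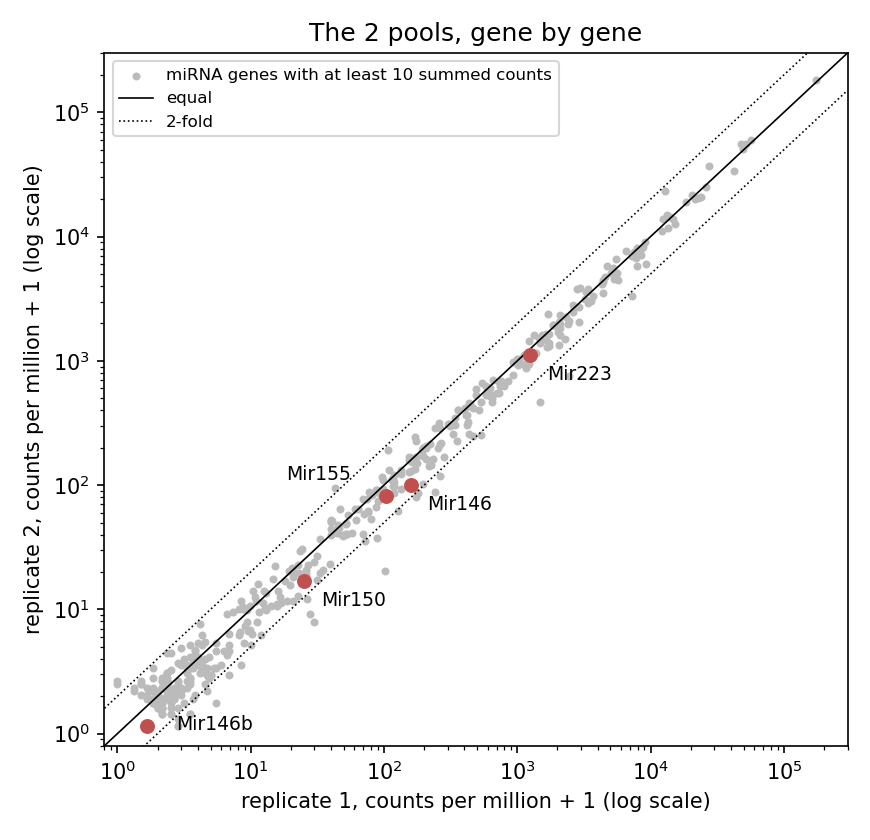
Replicate 2 (vertical) against replicate 1 (horizontal), in CPM plus 1 on log axes, for the 466 genes with at least 10 summed counts in grey and the 5 white blood cell genes in red, with Mir146b below that minimum. All 5 red points lie within the dotted 2-fold lines.

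Genes known from white blood cells in other settings were set beside these 5. Among other myeloid genes, Mir511, which lies in an intron of the macrophage mannose receptor gene Mrc1, had 30 counts in replicate 2 and 21 in replicate 1, or 4.49 and 3.51 CPM. Mir147, induced by Toll-like receptors in mouse macrophages, stood at 16.3 CPM in replicate 2 and 23.0 CPM in replicate 1. Mir223 exceeded Mir511 247-fold in replicate 2 and 356-fold in replicate 1, and Mir147 by 68.1-fold in replicate 2 and 54.1-fold in replicate 1. Neither passed the 2-fold test between the pools.

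Of the 5 genes of the other lymphoid list, 4 stood above Mir150 in both pools. The list held 0.561% of counts in replicate 2 and 0.474% in replicate 1. Mir342, in an intron of Evl, led it with 3773 CPM in replicate 2 and 2827 CPM in replicate 1, which is 238-fold and 117-fold above Mir150. Mir181a-1, whose product tunes antigen receptor signalling in mouse thymocytes, stood at 969 CPM in replicate 2 and 927 CPM in replicate 1, and Mir181b-2 at 761 CPM in replicate 2 and 923 CPM in replicate 1. Mir181a-2 was at 93.5 CPM in replicate 2 and 41.6 CPM in replicate 1. Mir181b-1 was at 14.7 CPM in replicate 2 and 18.9 CPM in replicate 1, below Mir150 in both pools, with Poisson intervals that overlapped those of Mir150. The miR-181 genes are copies of one another, and reads that match more than 1 of them are not in the gene counts. Their levels, and the pool difference of Mir181a-2 below, rest on the reads that remain. How many reads were lost, and from which arm, was not tested. These miRNAs are also made outside lymphocytes, so the list is no measure of lymphocytes here. Of its 5 genes, 1 passed the 2-fold test, against 5.79% of all genes tested. It was Mir181a-2, higher in replicate 2 by 1.15 on the log2 scale (adjusted p = 9.71e-29 by the exact binomial test). Of all 466 genes, 3 were called as higher in replicate 2. The call of Mir181a-2 was not made by edgeR's exact test (adjusted p = 0.139).

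The activation-linked genes outside the 5 went from low to very high. Mir21a, an abundant and widely made miRNA, stood at 11742 CPM in replicate 2 and 13594 CPM in replicate 1, which is 146-fold and 133-fold above Mir155. Mir132 and Mir212, which share a cluster on chromosome 11 and are induced in neurons as well as in immune cells, differed from each other: Mir132 stood at 289 CPM in replicate 2 and 261 CPM in replicate 1, and Mir212 at 23.1 CPM in replicate 2 and 28.9 CPM in replicate 1. None of the 3 passed the 2-fold test between the pools.

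Mir142, the miRNA gene shared by nearly all blood cell lines, was listed for white blood cells in general, though it does not mark them alone. No gene of that symbol was found among the genes counted, so it was not analysed here under its own name. Mir142b, annotated on the opposite strand of the same place (chr11:87756841-87756955, minus strand), had 0 sense counts in both libraries. On the strand of Mir142 its row held 7087 counts in replicate 2 and 10569 in replicate 1. The overlap of the 2 genes can be read from their products.
miR-142a-3p: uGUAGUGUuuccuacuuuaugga
miR-142b: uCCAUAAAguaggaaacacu
The 20 bases of miR-142b are the reverse complement of a stretch inside the 23 bases of miR-142a-3p. In CPM over both strands, the row stood at 1029 in replicate 2 and 1705 in replicate 1, while Mir223 stood at 1077 in replicate 2 and 1205 in replicate 1 on the same scale. The ratio of the Mir142b row to Mir223 was 0.955 in replicate 2 and 1.42 in replicate 1, so their order differed between the pools. On the log2 scale that row differed by -0.73 between the pools, against -0.16 for Mir223.

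Red cell, vessel and liver genes moved with the pools to different degrees. The 3 erythroid genes Mir144, Mir451a and Mir486 summed to 345 CPM in replicate 2 and 727 CPM in replicate 1. All 3 passed the 2-fold binomial test as lower in replicate 2, with a median log2 difference of -1.10. Of all 466 genes tested, 24 passed it as lower. With TMM 1 of the 3 stayed past the 2-fold limit and with DESeq2 size factors 0 did, against 22 of all 466 genes under either scaling. The exact test of edgeR passed 0 of them, against 4 of all 466 genes. Their adjusted p by that test was 0.469 to 0.492, and their unadjusted p 0.0211 to 0.0254. Mir451a, a red cell miRNA made without Dicer, was at 254 CPM in replicate 2 and 531 CPM in replicate 1. Mir223 therefore exceeded Mir451a 4.38-fold in replicate 2 (4.15 to 4.62) and 2.35-fold in replicate 1 (2.26 to 2.45). Mir122, the hepatocyte miRNA, stood at 757 CPM in replicate 2 and 2445 CPM in replicate 1, a log2 difference of -1.69. That difference was -1.56 with TMM and -1.53 with DESeq2 size factors, and edgeR's exact test passed Mir122 (adjusted p = 0.0313). The vessel genes Mir126a, Mir221 and Mir222 did not pass the 2-fold test. Their log2 differences were -0.07 for Mir126a, -0.75 for Mir221 and -0.28 for Mir222. Mir126a, the endothelial miRNA, exceeded Mir223 22.5-fold in replicate 2 and 21.0-fold in replicate 1. The part of blood or liver content in the differences of the white blood cell genes was not tested.

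**Figure D4:**
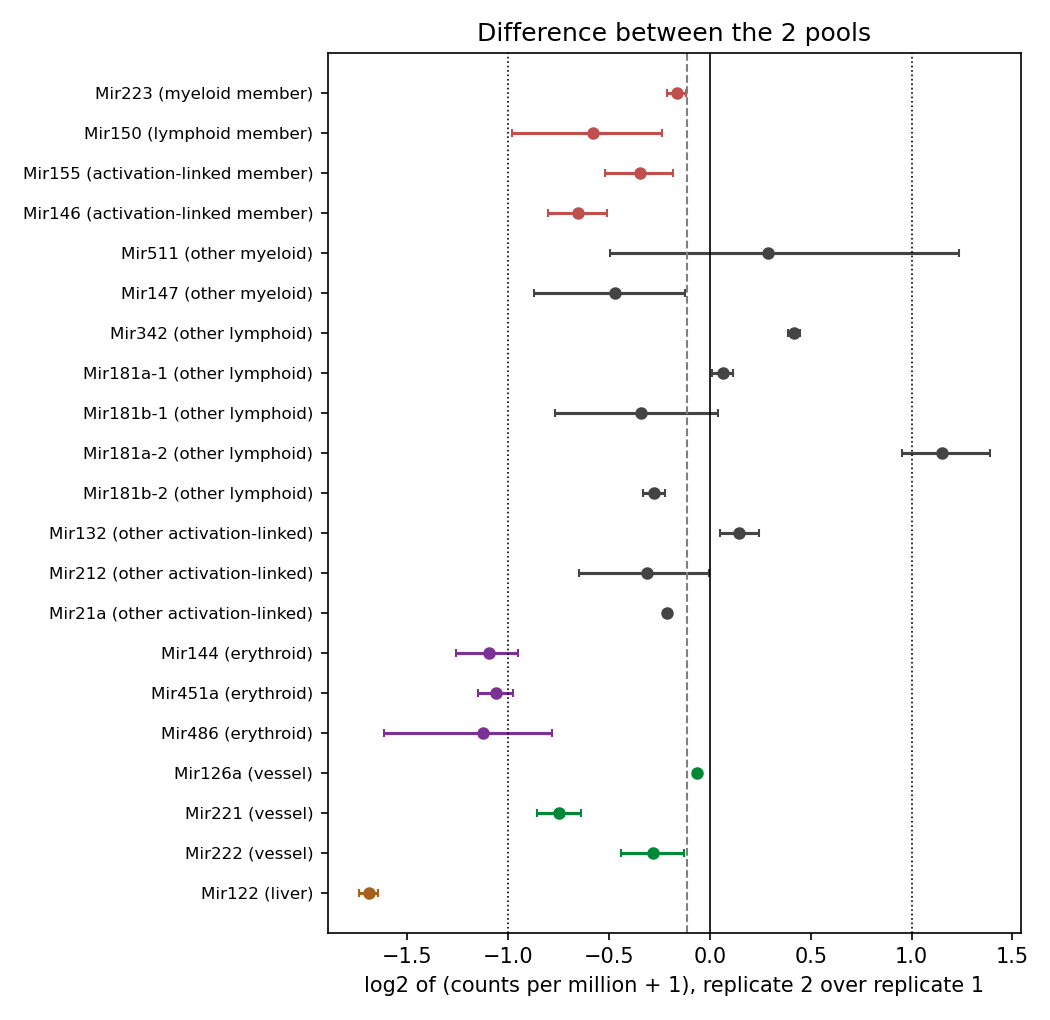
Log2 of CPM plus 1 in replicate 2 over replicate 1 for 4 of the white blood cell genes (red) and the other lists, with bars for 95% exact intervals of the count ratio, dotted lines at 2-fold and a dashed line at the median of all tested genes. Mir223, Mir150, Mir155 and Mir146 lie between -0.65 and -0.17, the erythroid genes near -1.10 and Mir122 at -1.69. Mir146b, with 5 counts in all, and Mir142b, with no sense counts, are not drawn.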

How the data were processed

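For each library the authors deposited a table of raw read counts by miRNA gene, as whole numbers and with no header, for mm10 and GENCODE M4 per the labels' description files. How reads were trimmed, aligned and counted is not stated there. Per gene, column 1 of the counts is the total of the next 2; column 2 holds nearly all reads of known miRNA genes and was used as sense. Lines naming no gene were left out: reads matching several places were 27.0% of reads in replicate 2 and 25.5% in replicate 1, unmapped reads 16.2% and 18.0%, and reads outside miRNA genes 2.26% and 2.92%.

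Symbols came from GENCODE M21 by gene identifier; 1894 of 1973 matched. Counts were divided by the summed sense counts (CPM), with 1 CPM added before logs. Calls of the binomial test needed an adjusted p under 0.05 and, unless another limit is named, a 2-fold difference. For edgeR's exact test, which scales by TMM, an adjusted p under 0.05 was enough. The test between the libraries was also run on 471 genes of simulated counts, with counting noise only and 200 changed genes. It called 81.6% of the genes given a log2 change of 1.5, 99.0% of those given a change of 3 and 0 of 273 unchanged genes. The simulation has no further spread between pools, which edgeR put at a coefficient of variation of 20.1% here. It therefore cannot give the rate of false calls in these pools. Nearest genes were the 2 closest in log2(CPM + 1). Alternatives covered scaling, strand, total, count minimum, fold limit, pseudocount, test and leaving out each replicate. The named genes are the 5 members, the listed genes of other blood, vessel and liver cells, and the nearest genes. The members and lists were chosen with earlier results of these data known. The software was R 4.3.3 with DESeq2 1.42.0 and edgeR 4.0.16, and Python 3.11.15 with statsmodels 0.14.6, pandas 2.3.3, scipy 1.17.1, matplotlib 3.10.9 and numpy 2.4.6.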

Additional observations from a re-analysis of the deposited data

Results flagged for a closer look

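Counts on the strand opposite to Mir142b lie outside the sense counts that the comparisons use. There were 7087 in replicate 2 and 10569 in replicate 1, above the 3 counts that a count of 0 allows. In GENCODE M21 this strand carries Mir142, not analysed here under its own name. The source of these counts was not tested.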

How the results depend on the processing

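The pool differences of Mir146, Mir150 and Mir155 and the 7 within-library ratios given above kept their direction under the alternatives run; that of Mir223 came to -0.01 with DESeq2 size factors (adjusted p = 0.836 by the exact binomial test), and Mir146b was not tested. With the 10 most abundant genes left out of the total, means came to 2522 CPM for Mir223, 274 for Mir146, 195 for Mir155, 42.7 for Mir150 and 0.865 for Mir146b, and the summed share of 0.142% to 0.303%, since the total is smaller; without Mir223 the share was 0.0240%. TMM, DESeq2 size factors and both strands moved no mean level by more than its SD. With pseudocount 5 the log2 difference was 1.96 for Mir155 over Mir150, 2.40 for Mir146 over Mir150 and 4.59 for Mir146 over Mir146b, and the last was 7.17 with pseudocount 0.5. Both strands gave the white blood cell list of Mir142b 0.137% in place of 0. Between the pools 27 genes were called, against 16 with at least 100 summed counts, 54 with a 1.5-fold limit, 213 with no fold limit, 13 with pseudocount 5 and 4 with edgeR's exact test. Of the white blood cell genes, 1 passed a 1.5-fold limit (Mir146), 4 no fold limit, and 3 no fold limit with TMM or with DESeq2 size factors, a pairing of choices made after seeing the data. Fewer genes tested and other limits account for the counts under those alternatives by construction. Pseudocount 5 changed no p, only the log2 differences to which the 2-fold limit is applied. The edgeR test differs in its spread, its TMM scaling and its lack of a fold limit, and their separate parts were not tested. For the scalings the cause was not tested. Without either replicate each level and ratio equals that of the other library, as given above. No paired analysis was possible because there is only 1 group. Depth limits Mir146b, at 5 counts in all.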
